A study of Rattus norvegicus with 24 samples.

Results

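The histocompatibility region analysed here was chromosome 20 of the rat assembly Rnor6.0 from base 1000000 to 6000000, the stretch that holds the rat major histocompatibility complex, RT1. A CpG on 1 strand was taken as a member when all 12 reduced representation bisulfite sequencing (RRBS) libraries covered it with at least 10 reads. This left 2196 CpGs of the region among 404069 in the whole genome, at 2072 CpG sites. In all, 16597 CpGs of the region were listed in at least 1 library, and 13.2% of these were members, against 15.7% genome-wide. The kidneys were from 2-month-old female rats of 2 strains, the outbred Sprague Dawley (CD) and the inbred Brown Norway (BN). In each strain, 3 rats were non-pregnant (NP) and 3 were at day 18 of pregnancy (P18), which gave the groups CD-NP, CD-P18, BN-NP and BN-P18. DNA came from cross-sections with both cortex and medulla, so every level is an average over the cell types of the kidney, and a shift in cell types and a shift within a cell type cannot be told apart.

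The major histocompatibility complex encodes the proteins that show peptides to T cells. Class I molecules stand on nearly all nucleated cells and present peptides made inside the cell, whereas class II molecules are mostly found on antigen-presenting cells and present peptides taken up from outside. Between and beside these genes lie the class III and framework genes, which serve many unrelated tasks such as transcription, RNA processing and transport. In the rat, the class I genes, of the RT1-A group and the RT1-C/E and RT1-M groups, are numerous and closely alike, and their number differs between strains. Methylation of cytosine in CpGs is usually low at CpG-dense gene starts and high elsewhere. RRBS cuts DNA with MspI at CCGG and reads the fragment ends after bisulfite has turned unmethylated C into T. Where the DNA of a rat has T in place of the C of the assembly, it is therefore read as unmethylated. The assembly is of the BN strain, and the part of such variants in a difference between strains was not tested.

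Gene starts were placed on Rnor6.0 by matching the CpG pattern of RefSeq promoter sequences (assembly GRCr8, 250 bases before to 50 bases after each start) to the listed CpGs. Of 351 promoter windows, 71 were placed, at 63 genes. In a check on 12 pairs of windows that lie 300 to 5000 bases apart in GRCr8, 11 pairs were placed at the same distance, and the largest departure was 2 bases. None of these pairs held a class I gene, so the check does not cover RT1-CE5 or RT1-A2, and near-identical class I genes could be confused in the placement. The 4 sequences shown carry the promoter results. The class I promoters of RT1-CE5 and RT1-A2 were the only ones of the 8 placed in their class with members, Skic2 stands for the CpG-dense unmethylated starts of the region, and LOC134483856, an uncharacterised gene, held the most methylated promoter. They are written 5′ to 3′ on the strand of the gene, as in RefSeq, and capitals mark the CpGs that were members. Their placed windows were chr20:4896942-4897241 (minus strand) for RT1-CE5, chr20:5374735-5375034 (plus strand) for RT1-A2, chr20:4530069-4530368 (minus strand) for Skic2 and chr20:4450759-4451058 (minus strand) for LOC134483856.
RT1-CE5: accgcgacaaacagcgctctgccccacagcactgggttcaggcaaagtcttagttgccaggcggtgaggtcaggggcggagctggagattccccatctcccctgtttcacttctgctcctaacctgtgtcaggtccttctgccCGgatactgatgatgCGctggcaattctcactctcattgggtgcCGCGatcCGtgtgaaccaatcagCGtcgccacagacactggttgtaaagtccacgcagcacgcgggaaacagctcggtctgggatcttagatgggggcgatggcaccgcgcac
RT1-A2: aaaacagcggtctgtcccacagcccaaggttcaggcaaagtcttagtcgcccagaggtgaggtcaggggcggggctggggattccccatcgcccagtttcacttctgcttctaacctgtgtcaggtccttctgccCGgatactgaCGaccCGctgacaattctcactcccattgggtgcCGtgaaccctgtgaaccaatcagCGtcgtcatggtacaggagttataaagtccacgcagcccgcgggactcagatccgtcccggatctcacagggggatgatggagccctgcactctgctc
Skic2: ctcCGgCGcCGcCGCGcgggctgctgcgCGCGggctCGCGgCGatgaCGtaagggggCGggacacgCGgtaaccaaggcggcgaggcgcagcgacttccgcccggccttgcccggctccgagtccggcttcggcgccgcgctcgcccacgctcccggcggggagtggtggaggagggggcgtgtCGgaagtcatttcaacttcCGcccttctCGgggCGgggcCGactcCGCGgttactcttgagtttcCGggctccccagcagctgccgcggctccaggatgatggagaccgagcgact
LOC134483856: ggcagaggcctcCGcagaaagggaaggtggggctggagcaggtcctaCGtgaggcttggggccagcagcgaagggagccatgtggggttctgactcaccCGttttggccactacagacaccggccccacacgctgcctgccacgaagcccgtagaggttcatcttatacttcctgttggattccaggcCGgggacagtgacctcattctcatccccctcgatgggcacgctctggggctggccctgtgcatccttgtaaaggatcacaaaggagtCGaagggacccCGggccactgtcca

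The promoter of RT1-CE5, a gene of the RT1-C/E group, held 19 CpGs, of which 6 were members, and that of RT1-A2, a classical class I gene, held 15, of which 5 were members. Skic2, which encodes an RNA helicase that works with the exosome, shared its window with the oppositely transcribed Nelfe, a subunit of negative elongation factor, and held 46 CpGs with 21 members. Over all 33469 promoter windows of the reference the median was 7 CpGs. The CCAAT box was searched on both strands and occurred at positions -72 and -48 from the start in RT1-CE5 and at -80 and -56 in RT1-A2, and 37.5% of all windows held it. The motif TTTCACTTC, which resembles an interferon response element, occurred at -146 and -154, respectively. The motif GATTCCCC, part of the class I enhancer A that NF-kB proteins bind, occurred at -164 and -171. These 2 motifs were chosen after the sequences had been seen. Each was in 6 of the 8 placed class I promoters, against 0.469% and 0.804% of all windows. Of the other motifs searched, TGACG was in 4 of the 8 (21.2% of all windows) and TATAAA in 4 (14.2%). RT1-A2 held TGACG at -108 and -45 and TATAAA at -28, and RT1-CE5 held neither. These matches are letters in a window, not measured binding. An uncharacterised gene, LOC134483853, starts on the opposite strand within the RT1-CE5 window, so the same 6 CpGs lie in both promoters.

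The 12 libraries listed CpGs with 21669162 to 44738436 reads of coverage in sum, and the median coverage of a member was 16 to 30 reads. Over all members and libraries the median was 24 reads. At that depth a level of 50% has an exact (Clopper-Pearson) 95% binomial interval from 29.1 to 70.9%, and for a level of 0 the upper bound of that interval is 14.2%. These limits cover counting error only. Replicate libraries were distinct, since no pair of a group had the same counts at more than 3.61% of CpGs. Nothing in the labels tells how rats were housed or processed together, so no batch was modelled. The p-values of single CpGs rest on a spread between rats that is moderated with CpGs of the whole genome. They do not measure the spread at that CpG alone. Where both strands of a site were members (124 sites), their mean levels differed by a median of 0.746 percentage points, and 0 sites differed by more than 10 points.

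Methylation of the region was lower than that of the genome and much the same in the 4 groups. The mean over members was 32.8 to 33.9% per rat, against 44.5 to 45.2% over all 404069 CpGs. Levels under 10% were found at 50.7% of members (40.01% genome-wide), and levels over 90% at 13.2% (21.6% genome-wide). CD-NP averaged 33.6% ± 0.394, CD-P18 33.0% ± 0.175, BN-NP 33.2% ± 0.181 and BN-P18 33.3% ± 0.296 (SD, n = 3 each). BN and CD differed by -0.0549 points (two-sided exact permutation test over rats within stage, p = 0.775), and P18 and NP by -0.275 points (p = 0.185). The smallest p that this design allows is 0.005. Between rats, the mean SD at single CpGs was close to that of the genome, whereas wide ranges were more frequent in the region. The SD within groups averaged 4.47 points in CD and 4.07 points in BN, against 4.59 and 4.31 genome-wide. A range of over 40 points among the 6 rats of a strain was found at 77 members in CD and 45 in BN (3.51% and 2.05%, against 2.54% and 1.49% genome-wide).

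Levels followed the gene starts. In the 186 members from base 0 to 249 after a placed start of a named gene the mean was 0.502%, and rats ranged from 0.348 to 0.782%. In the 250 bases before a start it was 0.883% over 158 members. It was 0.609% from -500 to -251, 1.59% from -1000 to -501 and 22.5% from -2000 to -1001. After the start it was 0.524% from 250 to 499, 8.99% from 500 to 999, 29.3% from 1000 to 1999 and 72.4% from 2000 to 4999. All 4 groups had this shape (plot of methylation around placed gene starts). At these placed starts low methylation thus reached about 1000 bases before and 500 bases after, and the bins on either side overlapped in no rat. Placement needed at least 7 matched CpGs, so starts with few listed CpGs, among them those of class II genes, are not in this profile.

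**Figure D1:**
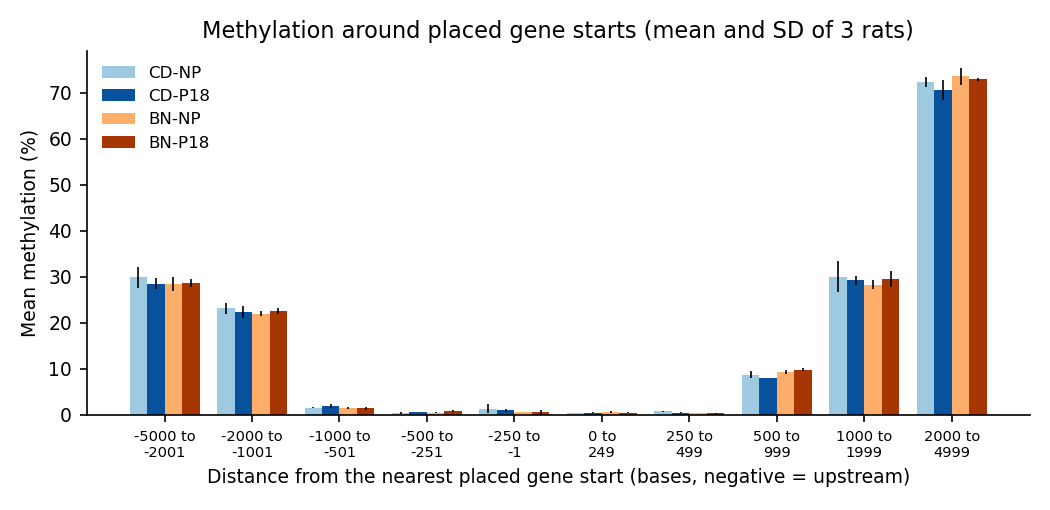
Mean methylation (%) of members by distance from the nearest placed gene start (bases, negative upstream); bars are group means and lines the SD of 3 rats. Bars near the start are under 2% from -1000 to 499 and rise to about 72% at 2000 to 4999, in all 4 groups.

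By role, the promoters of framework and class III genes were almost free of methylation in every rat. The extended class II genes, such as Rps18 (a ribosomal protein), Vps52 (a vesicle tether) and Rxrb (retinoid X receptor beta), had 13 genes placed and 69 promoter members with a mean of 0.280%, and the means of single promoters were 0.0417 to 0.469%. The class III genes, among them Skic2 and Ddx39b (an RNA helicase of mRNA export), had 12 genes placed and 66 promoter members with a mean of 0.479%. In the class I framework, which holds Tubb5 (a beta tubulin), Ppp1r10 (a phosphatase regulator) and Ddr1 (a collagen receptor kinase), 11 genes were placed and 33 members averaged 1.20%. Within it Ddr1 stood apart at 9.44% over 3 members, with rats from 0 to 20%. None of these promoter members was called in a comparison of the strains, as calls are defined for BN against CD. Genome-wide 0.909% of CpGs were called over both stages. Tapbp, which encodes tapasin of the peptide-loading complex, had 13 members within 1000 bases of its start. Of these 0 were called, and 13 are too few to set against that share.

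The promoter of LOC134483856 was the exception to low methylation, with a mean of 52.5% over 6 members. CD-NP stood at 51.0% ± 4.61, CD-P18 at 53.8% ± 5.71, BN-NP at 51.4% ± 5.72 and BN-P18 at 53.8% ± 9.24 (SD, n = 3). Rats ranged from 44.9 to 63.9%, the groups overlapped, and none of its 6 members was called (genome-wide 0.909% over both stages).

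Class II genes could not be described at their promoters. None of the 9 class II genes with a promoter sequence was placed, and these windows held a median of 4 CpGs, against 24 for the extended class II genes. All 10 class II genes listed, and 4 of the 5 antigen-processing genes, lie between Rxrb and Pbx2 in the gene order of GRCr8. The windows of Rxrb and Pbx2 were placed in Rnor6.0 on the strand opposite to that in GRCr8, whereas that of RT1-CE16 was not. The name class II stretch, used below, therefore assumes that the genes between Rxrb and Pbx2 are the same in both assemblies. In Rnor6.0 the stretch from the Rxrb start to the Pbx2 start, chr20:3823188-4357804, held 164 members with a mean of 61.3%, and rats ranged from 59.7 to 62.8%. Levels under 10% were found at 11.6% of them.

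To see how the strains differed CpG by CpG, BN was compared with CD at each stage and over both stages. A CpG was called differentially methylated (DMC) at a Benjamini-Hochberg adjusted p under 0.05 over all 404069 CpGs, from a quasi-binomial logistic fit with limma's moderated dispersion, and a difference over 10 percentage points of pooled reads. Over both stages 38 members were called, or 1.73%, against 0.909% of all CpGs tested. Of these, 18 were higher and 20 lower in BN, whereas genome-wide 0.678% were called higher and 0.231% lower. BN-NP differed from CD-NP at 24 members, 11 higher and 13 lower (background 0.592%, of which 0.467% higher and 0.125% lower). BN-P18 differed from CD-P18 at 20 members, 14 higher and 6 lower (background 0.555%, of which 0.456% higher and 0.0995% lower). At both stages and in the same direction, 13 members were called, 9 higher and 4 lower in BN (0.592% of members, background 0.39%, of which 0.33% higher and 0.0596% lower). In 20 of the 38 CpGs called over both stages, the 6 CD rats and the 6 BN rats did not overlap. These CpGs had been selected for a strain difference, and no share without overlap was computed over all 404069 CpGs. With each CpG's own dispersion in place of the moderated one, 0, 0 and 10 members were called in BN-NP versus CD-NP, BN-P18 versus CD-P18 and over both stages, respectively.

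**Figure D2:**
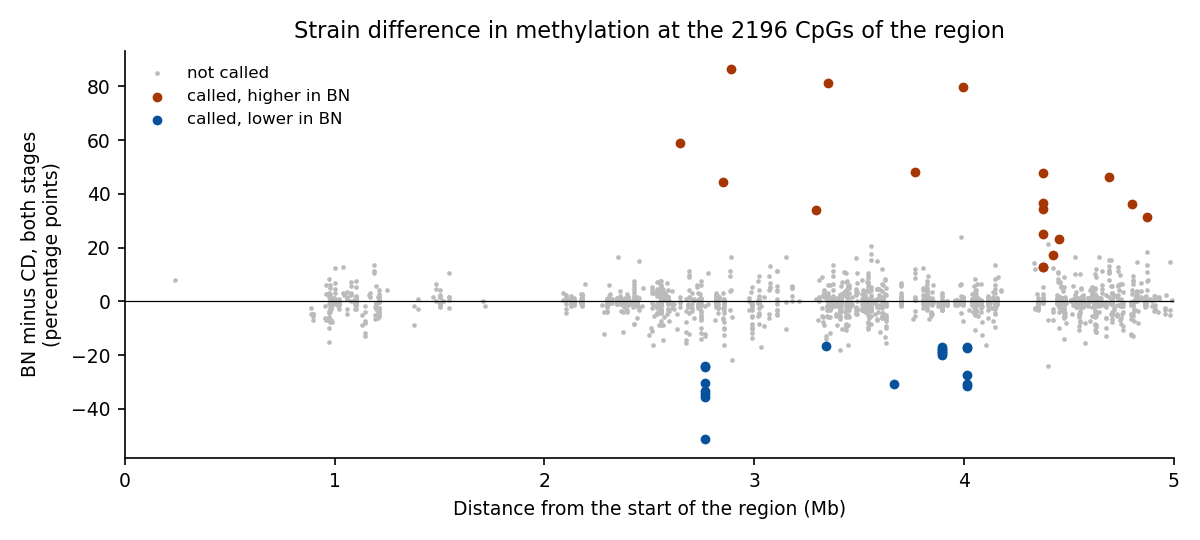
Difference in methylation between BN and CD over both stages (percentage points of pooled reads) at each of the 2196 members, by distance from the start of the region in Mb. Grey points are not called; the 18 red points are called higher and the 20 blue points lower in BN, and the blue points stand in a few tight groups.

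Over both stages the calls were spread unevenly along the region, of whose members 1.73% were called (0.909% genome-wide). Of the 130 members between the starts of Ddr1 and Ring1 (a Polycomb E3 ligase), 8 were called over both stages, 7 of them lower in BN. Between Ddx39b and Lsm2, where RT1-CE5, RT1-CE4 and RT1-CE3 were placed, 6 of 109 were called, all lower in BN. Between Bag6 (a chaperone for membrane proteins) and Vps52, where RT1-A2 and RT1-A1 were placed, 7 of 120 were called, all higher. Between Rxrb and Pbx2, the class II stretch, 5 of 164 were called, 4 of them higher. Stretches without a placed class I start differed as well. Between Lsm2 and Bag6 6 of 149 were called, 5 of them lower, but 0 of 357 between Pbx2 and Neu1 (a lysosomal sialidase) and 0 of 489 between Gabbr1 (a GABA-B receptor subunit) and Ddr1. In the last of these, 1 member, at base 3451696, was called in BN-P18 versus CD-P18. Of the 675 members within 1000 bases of a placed start, 12 were called, all of them at RT1-CE5 or RT1-A2. The calls were few in each stretch, and CpGs on the same fragment share reads, so these counts are a description.

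Of the 38 calls, 21 lay in 4 runs, each of at least 3 CpGs called in the same direction over both stages with gaps of at most 100 bases. No run met this rule at both stages separately, so the runs were defined after the values had been seen. In 3 runs, with 15 CpGs, BN was lower, and in 1 run, with 6 CpGs, BN was higher. The other 17 calls were single or in pairs, 12 higher and 5 lower in BN.

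The run in the RT1-CE5 promoter, chr20:4897031-4897098 on the minus strand, held the 6 promoter members at -107 to -40 from the start, between and beside the 2 CCAAT boxes. Its mean level was 21.2, 0 and 49.3% in the CD-NP rats and 0, 16.1 and 16.03% in the CD-P18 rats. It was 0, 0 and 1.39% in the BN-NP rats and 0.926, 0.833 and 0% in the BN-P18 rats. Thus 4 of 6 CD rats carried methylation there and 2 did not, while no BN rat was above 1.39%. Within a rat the 6 CpGs stood close together. In CD-NP replicate 3 they were 47.8 to 52.2%, and in CD-NP replicate 2 and CD-P18 replicate 1 they were 0 throughout. The mean was 17.1% ± 18.1 in CD and 0.525% ± 0.605 in BN (SD, n = 6), a difference of -16.6 points. Over both stages all 6 were called, with adjusted p from 6.72e-05 to 0.00314 in the moderated logistic fit, and all 6 in BN-NP versus CD-NP, but 0 in BN-P18 versus CD-P18. Without CD-NP replicate 3 the difference was -10.1 points and 3 of the 6 were called. Without any other single rat all 6 stayed called. Coverage of this run also differed, with a median of 31 reads in CD and 21 in BN. A block with 7.85-fold more coverage in CD lay 555 to 622 bases after the same start. Whether reads of near-identical class I genes entered these levels was not tested.

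**Figure D3:**
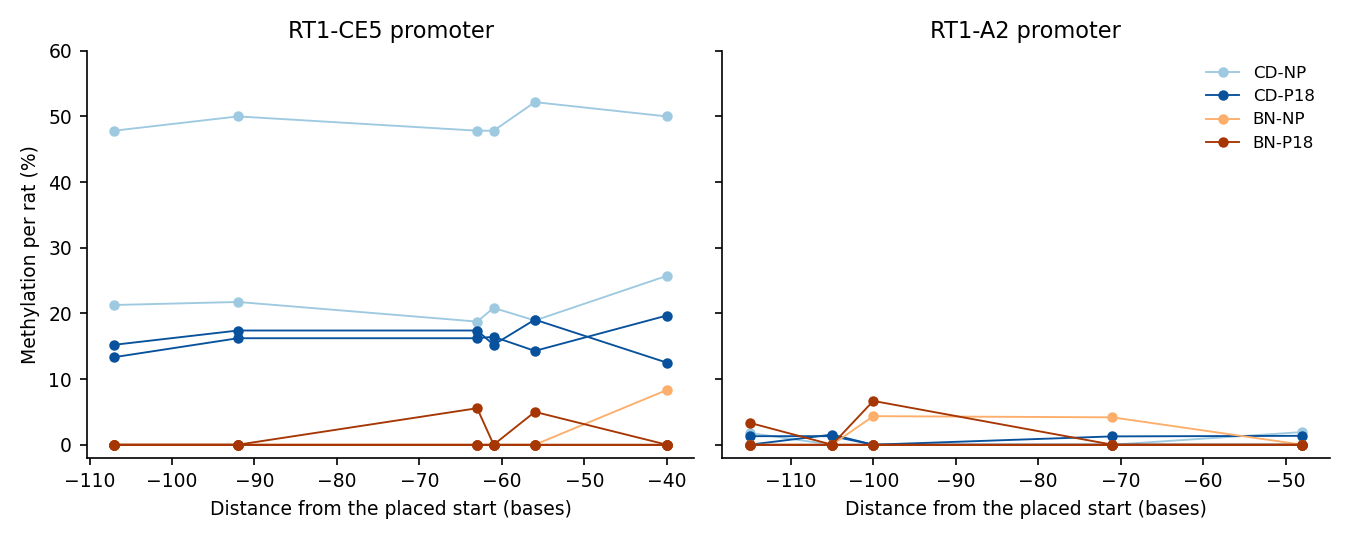
Methylation (%) of each rat at the member CpGs of the RT1-CE5 and RT1-A2 promoters, by distance from the placed start in bases; each line is a rat, coloured by group. At RT1-CE5 4 of the 6 CD rats lie above 12% at all 6 CpGs while BN rats lie between 0 and 8.33%, and at RT1-A2 every rat lies under 7%.

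The RT1-A2 promoter, which shares the CCAAT, TTTCACTTC and GATTCCCC matches with that of RT1-CE5, was almost free of methylation in both strains. Over its 5 members, at -115 to -48 from the start, CD-NP averaged 0.247% ± 0.428, CD-P18 0.450% ± 0.536, BN-NP 0.568% ± 0.983 and BN-P18 0.667% ± 0.667 (SD, n = 3). The highest rat stood at 1.70%, and none of the 5 was called (genome-wide 0.909% over both stages).

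Within RT1-A2 the strains did differ, farther into the gene. The run chr20:5375842-5375891 on the minus strand, 857 to 906 bases after the placed start, had 6 called CpGs among 7 members, all higher in BN. Its mean level over the called CpGs was 6.94, 6.04 and 13.6% in the CD-NP rats and 3.33, 6.50 and 1.56% in the CD-P18 rats. It was 41.1, 27.8 and 29.9% in the BN-NP rats and 26.7, 28.8 and 45.2% in the BN-P18 rats. Every BN rat was above every CD rat. The means were 6.33% ± 4.13 in CD and 33.2% ± 7.86 in BN (SD, n = 6), a difference of 26.9 points, and leaving out any 1 rat gave 24.0 to 28.6 points with 4 to 6 CpGs called. The largest member difference of the run was 47.7 points, at base 5375877 (adjusted p = 3.29e-12). Coverage of this run also differed, with a median of 42.5 reads in CD and 20 in BN.

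Between Ddr1 and RT1-CE16, a class I gene, the run chr20:3764930-3765032 lay 29017 to 29119 bases from the nearest placed start and had 5 called CpGs, all lower in BN. The CD-NP rats were at 86.2, 65.7 and 75.5% and the CD-P18 rats at 77.4, 79.2 and 79.1%. The BN-NP rats were at 40.01, 49.8 and 35.2% and the BN-P18 rats at 44.2, 42.5 and 37.1%. The strains did not overlap, and CD averaged 77.2% ± 6.68 against 41.5% ± 5.26 in BN (SD, n = 6), a difference of -35.7 points. A further 2 called CpGs, at bases 3765228 and 3765263 of the minus strand, were lower in BN by 33.4 and 24.0 points.

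The remaining run, chr20:5013430-5013473 on the minus strand, lay between Vars1, the valyl-tRNA synthetase, and Bag6. Its 4 CpGs were all members and all lower in BN. The CD-NP rats were at 31.2, 37.5 and 42.4% and the CD-P18 rats at 24.2, 27.7 and 27.3%. The BN-NP rats were at 5.17, 4.40 and 8.40% and the BN-P18 rats at 12.3, 5.70 and 4.93%. Again no BN rat reached the lowest CD rat. CD averaged 31.7% ± 6.94 and BN 6.82% ± 3.04 (SD, n = 6), a difference of -24.9 points, and all 4 stayed called whichever rat was left out.

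**Figure D4:**
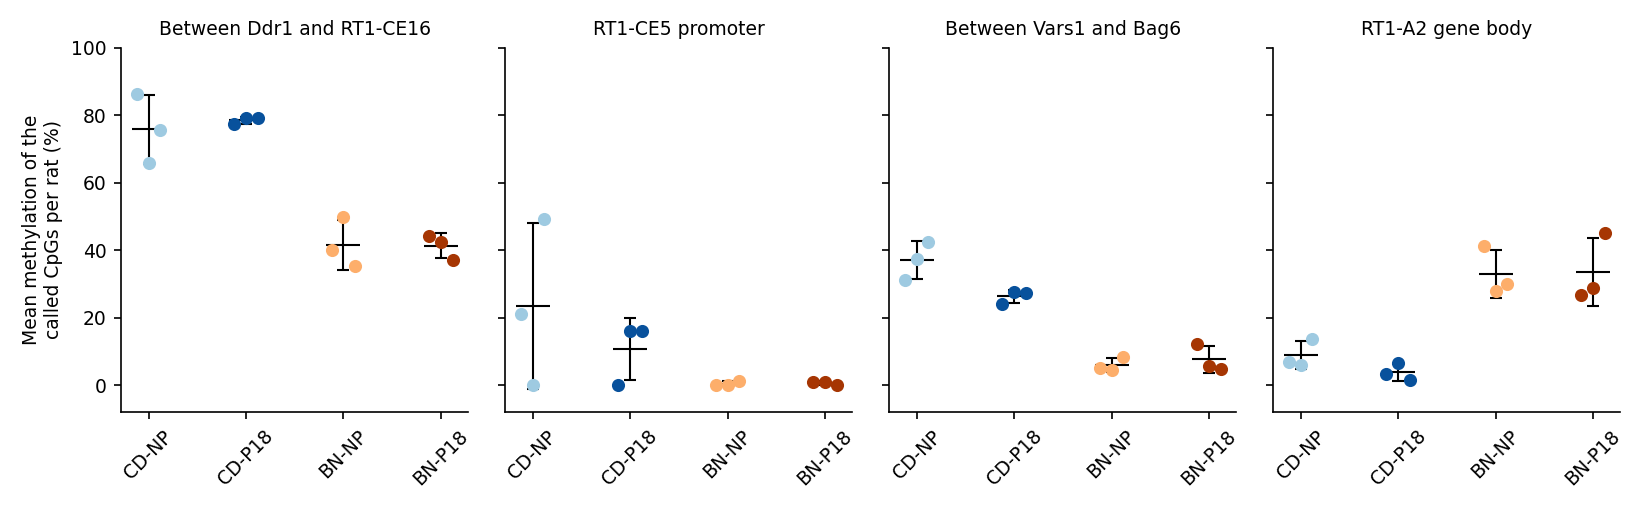
Mean methylation (%) of the called CpGs of each of the 4 runs, by group; points are rats, horizontal lines group means and whiskers the SD of 3 rats. BN and CD rats do not overlap in the runs near RT1-CE16, between Vars1 and Bag6 and in RT1-A2, and 2 CD rats at 0 overlap with BN at the RT1-CE5 promoter.

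Among the 13 CpGs called at both stages, the largest differences were at single positions rather than in runs. At base 3887016 of the plus strand, in the class II stretch, all 6 CD rats were at 0%, over 206 reads, which allows a level of up to 1.46% (3 reads of 206). The BN-NP rats stood at 81.8, 86.4 and 89.2% and the BN-P18 rats at 91.7, 84.2 and 84.6%. The difference was 86.4 points over both stages (adjusted p = 1.76e-24, moderated logistic fit). The 2 other members within 50 bases were higher in BN by 4.14 and 16.3 points.

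At base 4997061 of the plus strand, 3326 bases after the Vars1 start and so within the length of that gene, the CD-NP rats were at 4, 0 and 0% and the CD-P18 rats at 2.78, 0 and 0%. The BN-NP rats were at 82.5, 87.2 and 73.3% and the BN-P18 rats at 81.1, 72.7 and 89.7%. The difference was 79.7 points (adjusted p = 1.23e-22), and the other member within 50 bases differed by -7.50 points. These were the 2 members (0.0911%) with every CD rat at 5% or less and every BN rat at 70% or more. Genome-wide this pattern was found at 220 CpGs (0.0544%). The reverse pattern was found at 0 members and at 1 CpG genome-wide.

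At base 4350027 of the minus strand, -7778 bases from the start of Pbx2, a homeobox gene, CD was near 0 in all but 1 rat. The CD-NP rats were at 0, 0 and 57.1% and the CD-P18 rats at 2.44, 0 and 0%. The BN rats were at 86.4 to 100%. The difference was 81.3 points (adjusted p = 1.66e-15), whereas the 3 other members within 50 bases differed by -2.71 to 3.17 points.

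At base 5692599 of the minus strand, within the length of Itpr3, an inositol trisphosphate receptor, 3 of the 6 CD rats were near 0 and 3 were not. The CD-NP rats were at 0, 42.9 and 57.1% and the CD-P18 rats at 2.63, 0 and 46.7%. The BN rats were at 57.7 to 80.0%, just above the highest CD rat. The difference was 46.2 points (adjusted p = 6.80e-06).

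At base 3645829 of the minus strand, between Ddr1 and RT1-CE16, the CD-NP rats were at 31.8, 41.7 and 38.9% and the CD-P18 rats at 0, 0 and 33.3%. The BN-NP rats were at 86.7, 85.7 and 91.4% and the BN-P18 rats at 46.2, 93.3 and 81.0%. The difference was 58.8 points (adjusted p = 4.45e-10), and the opposite strand of the same site, which missed 10 reads in some libraries, differed by 55.4 points.

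The other CpGs called at both stages were at bases 3849617 and 4767785, higher in BN by 44.4 and 48.0 points, and the rest lay in 3 of the 4 runs or, at base 3765228, beside a run. At base 3849617 the CD rats were at 0 to 80.0% and the BN rats at 70.6 to 91.7%, and the strains overlapped. In the other 12 of the 13 they did not, though all 13 had been selected for a strain difference. Of the 17 calls outside the runs, 14 had another member within 50 bases, and at 7 of these the neighbours' median difference was under 10 points. By the median, coverage of the called CpGs was also lower in BN than in CD, but not at all of them. The 39 members called in any strain comparison had a median log2 ratio of coverage scaled to the library, BN over CD, of -0.312, against -0.0584 for the other 2157. The ratio was under -1 at 8 of the 39, all of them in the runs of RT1-CE5 and RT1-A2. In the run between Vars1 and Bag6 it was 0.447 to 0.532. The part of coverage in the calls was not tested.

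Coverage itself separated the strains at 3 places, all of them on the side of CD. Coverage was scaled to reads per 1000000 of the summed coverage of all 404069 CpGs, and 34 members (1.55%) had over 4-fold more of it in CD than in BN, against 89 CpGs (0.0220%) genome-wide. None had over 4-fold more in BN, against 50 genome-wide. In all 34 the 6 CD rats stood above the 6 BN rats, as they did in 69 of the 89. They lay in 3 blocks, 1 between RT1-CE6 and Ddx39b and 2 inside class I genes.

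The block chr20:4896369-4896436, at 555 to 622 bases after the RT1-CE5 start, had 12 members on the plus strand and 7.85-fold more coverage in CD. CD-NP rats had 16.3, 11.004 and 6.01 scaled reads per CpG and CD-P18 rats 12.3, 17.0 and 18.02. BN rats had 1.29 to 2.13. The block chr20:4920946-4921004, at 335 to 393 bases after the RT1-CE4 start, had 11 members and 9.16-fold more coverage in CD, with CD rats at 8.32 to 29.3 and BN rats at 1.68 to 3.15. The block chr20:4698319-4698377 had 11 members and 8.18-fold more coverage in CD, with CD rats at 7.33 to 19.9 and BN rats at 0.854 to 2.83.

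**Figure D5:**
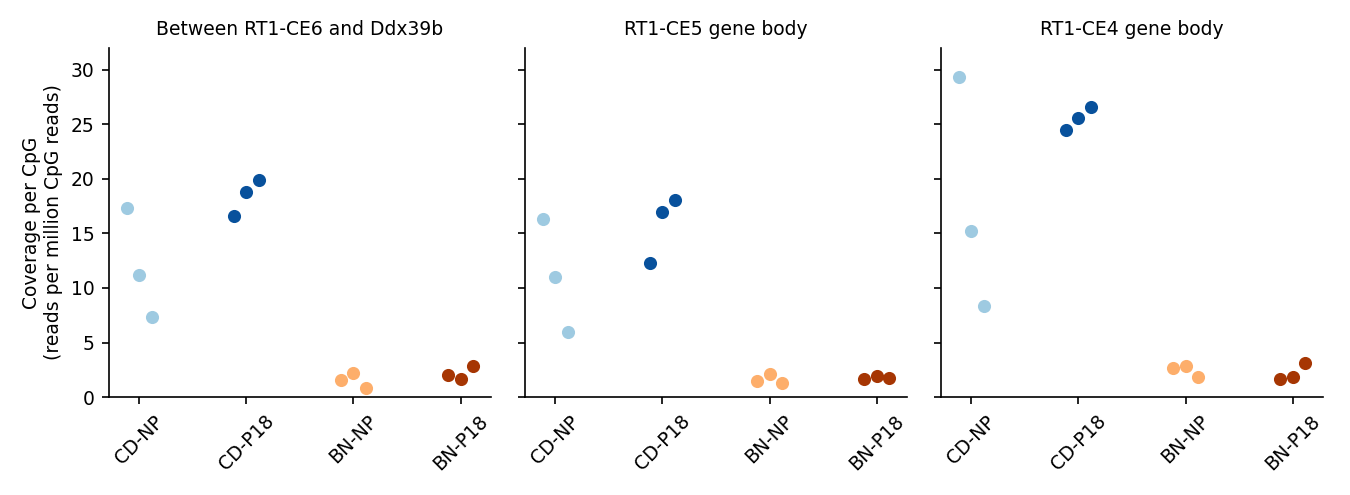
Coverage per CpG (reads per 1000000 of summed CpG coverage) in the 3 blocks with over 4-fold more coverage in CD; points are rats, by group. All CD rats lie above all BN rats in each block, and BN rats lie under 4 in all 3.

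Methylation in these blocks was low in both strains. In the order RT1-CE6 to Ddx39b, RT1-CE5 and RT1-CE4, the means were 1.14, 3.75 and 0.814% in CD and 0.351, 0.710 and 0.194% in BN. Of the 34 members 0 were called (genome-wide 0.909% over both stages). The blocks took 4.52 to 12.1% of the region's coverage in a CD rat and 0.919 to 1.72% in a BN rat. They moved the mean of the region when each CpG was weighted by its reads. That mean was 26.6 to 31.9% in CD rats and 31.9 to 34.0% in BN rats, 4.06 points higher in BN (exact permutation p = 0.005, the smallest possible). Without the blocks it was 30.1 to 33.2% in CD rats and 32.4 to 34.4% in BN rats. The ranges then overlapped, and both ends were still higher in BN. Without them the CD-NP rats were at 33.2, 31.6 and 33.2% and the CD-P18 rats at 32.1, 31.4 and 30.1%. The BN-NP rats were at 33.8, 32.4 and 33.5% and the BN-P18 rats at 33.9, 34.4 and 33.0%. The blocks thus entered the 4.06 points, and the difference that remained without them was not tested. Class I genes are near-identical copies of each other, and how their reads were divided among the copies was not tested.

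The strains also differed in which CpGs were listed. The lowest coverage listed was 5 reads, so a CpG missing from a library had fewer reads than that, not necessarily none. Of 5440 CpGs of the region with at least 10 reads in all BN libraries, 162 (2.98%) were listed in no CD library, against 1.39% genome-wide. Of 3913 with at least 10 reads in all CD libraries, 68 (1.74%) were listed in no BN library, against 0.728% genome-wide. The stretch between Bag6 and Vps52, with RT1-A2 and RT1-A1, held 58 of the 162. The stretch from Vps52 to the end of the region held 31 of the 68. None of these CpGs are members, so no level was compared at them.

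Pregnancy was compared within each strain. In CD-P18 versus CD-NP 0 members were called, against 0.0483% of all CpGs (smallest adjusted p = 0.295), and 78 members (3.55%) had an unadjusted p under 0.05, against 3.35% genome-wide. In BN-P18 versus BN-NP 0 members were called as well, against 0.000247% of all CpGs, and 62 members (2.82%) had an unadjusted p under 0.05, against 3.52% genome-wide. Reads were simulated at the real coverage, from the CD-NP levels, with 200 CpGs changed and the same dispersion between rats at every CpG. Among 404069 CpGs, 20% of changes of 30 points and 98% of changes of 60 points were recovered for the CD comparison. Real rats differed in spread from CpG to CpG, so these shares hold for the simulated dispersion only. Changes of 30 points at single CpGs in CD were therefore mostly not detectable.

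The CpGs with the smallest p are given as values, since none passed the test. In CD the first was base 5453586 of the minus strand, 2046 bases after the start of Wdr46, a nucleolar protein gene. The CD-NP rats stood at 64.3, 20 and 54.2% and the CD-P18 rats at 93.9, 94.7 and 68.4%, a difference of 34.1 points (adjusted p = 0.295). The BN rats were at 75.0 to 100%. This CpG was called between the strains when non-pregnant (42.5 points, adjusted p = 2.56e-05) and not at P18 (3.79 points, adjusted p = 1), and its interaction had an adjusted p of 0.997.

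The next in CD was base 4310701 of the plus strand in the class II stretch, at 90.9, 95 and 93.8% in CD-NP and 62.1, 71.4 and 70% in CD-P18 (adjusted p = 0.475). Base 4391429 of the plus strand, at -955 from the start of Ppt2, a lysosomal thioesterase gene, was at 0, 4.55 and 7.14% in CD-NP and 13.95, 25 and 21.3% in CD-P18 (adjusted p = 0.5003). In both the CD stages did not overlap, nor did they at bases 5453586 and 4438033. These CpGs had been selected for a small p, and no share without overlap was computed over all CpGs. The other CD CpGs named, at bases 3645829 and 4438033, differed by -28.1 and -19.7 points.

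In BN the CpG with the smallest p was base 4068807 of the minus strand, also in the class II stretch. The BN-NP rats were at 85.0, 96.3 and 91.7% and the BN-P18 rats at 73.9, 66.7 and 66.7%, a difference of -22.4 points (adjusted p = 1). Base 3744774 of the minus strand, between Ddr1 and RT1-CE16, was at 71.4, 50 and 54.8% in BN-NP and 86.4, 81.3 and 77.3% in BN-P18 (adjusted p = 1). The stages did not overlap at either, nor at bases 5806461 and 5153453, but here too the CpGs had been selected for a small p. The other BN CpGs named, at bases 5806461, 5153453 and 2397907, differed by 24.7, 6.82 and 23.9 points.

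Whether pregnancy acted differently in the strains was tested as an interaction. It was called at 0 members, against 0.0052% of all CpGs, with 67 members (3.05%) at an unadjusted p under 0.05 and a smallest adjusted p of 0.517. On simulated reads this logistic test recovered 13% of interactions of 60 points, so a test of the interaction in percentage points, which recovered 91% of them, was added after the data had been seen. It called 0 members, against 0.0374% of all CpGs, with 45 at an unadjusted p under 0.05 and a smallest adjusted p of 0.297. Of interactions of 30 points it recovered 14%, so these were mostly not detectable. These shares too hold for the simulated dispersion only.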

How the data were processed

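Kidney RRBS libraries of 12 rats (3 per group) were analysed, and groups came from the labels. The authors trimmed reads with Trim Galore 0.4.5 and the NuGEN scripts, de-duplicated them by N6 tags, mapped the remainder with Bismark against Rnor6.0 and wrote call files with methylKit 1.16.1. Each deposited file gives per CpG and strand the coverage (a count of reads, lowest 5) and the percent methylated and unmethylated, and methylated reads were recovered as coverage times percent. Coverage summed to 21669162 to 44738436 reads per library.

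The 404069 CpGs covered by 10 or more reads in every library were fitted by logistic models in Python 3.11.15 with scipy 1.17.1. Dispersions were moderated with squeezeVar (limma 3.58.1, R 4.3.3), with a prior from levels of 10 to 90%, and were never under 1. Calls (DMCs) needed an adjusted p under 0.05 and more than 10 points between pooled reads. The members, gene lists and tests were chosen with earlier results of these data known, and runs and promoter placement limits (at least 7 matched CpGs, at most 1 unmatched, a lead of 3) after values were seen. The text names the CpGs called at both stages (the 10 with the largest smaller difference and those adding the lower direction), and the 5 with the smallest p for pregnancy per strain. Scripts were tested on simulated data.

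Deviations of same-numbered rats had correlations of -0.0135 to 0.0216, and the labels name no pairs, so numbers were not used as pairs. Alternatives were other dispersions, coverage, difference limits, a replicate block and leaving out each rat. The deposited RNA counts were not used, since neither they nor the reference pair their identifiers with symbols; tests of gene expression and of kidney and immune cell markers were not run.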

Additional observations from a re-analysis of the deposited data

How the results depend on the processing

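Directions of all 26 strain differences at the named CpGs (13 at each stage) were kept when any 1 rat was left out. Other dispersions and the replicate block leave the difference itself unchanged, so they could not turn a direction. The calls at these CpGs were less stable. With each CpG's own dispersion 26 of the 26 were lost, and with the replicate block 20. Without CD-NP replicate 1, 5 of 13 were lost. The counts of calls over all members changed as well. With each CpG's own dispersion, 0, 0 and 10 members were called in BN-NP versus CD-NP, BN-P18 versus CD-P18 and over both stages, in place of 24, 20 and 38. With at least 20 reads in all libraries only 121 members could be tested, and 0, 0 and 2 were called. A difference limit of 25 points left 23 of the 38. Without overdispersion 31 members were called in BN-P18 versus CD-P18 and 1 in CD-P18 versus CD-NP.

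Leaving out 1 rat gave 11 to 23 calls in BN-NP versus CD-NP, with 11, 15 and 14 without BN-NP replicates 1, 2 and 3. In BN-P18 versus CD-P18 it gave 12 to 25, with 13 and 12 without BN-P18 replicates 2 and 3. In CD-P18 versus CD-NP it gave 0 to 2, with 2 without CD-P18 replicate 3. Over both stages it gave 33 to 39, and in BN-P18 versus BN-NP and for the interaction 0 throughout. Fewer rats give less power, and the cause of these shifts was not tested further. The mean of the region, BN minus CD, ranged from -0.164 to 0.0305 points without 1 rat, with 0.0270 and 0.0305 when CD-NP replicate 3 or BN-P18 replicate 3 was left out, and was 4.06 when CpGs were weighted by reads. P18 minus NP ranged from -0.384 to -0.189 points without 1 rat.

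With the replicate number as a block 2, 5 and 36 members were called in BN-NP versus CD-NP, BN-P18 versus CD-P18 and over both stages, all of them among the unblocked calls, and 0 for pregnancy in either strain. Correlations of same-numbered rats were small. Even so, each BN-P18 rat correlated best with its own number in CD-P18, as did BN-NP replicates 1 and 2 in CD-NP. Within the strains only CD-P18 replicate 3 did so. Whether same-numbered rats shared a step of processing was not tested. The block changed neither call on the mean of the region. The expression tests planned were not run, because identifiers of the RNA counts could not be paired with symbols. Depth also limits single values, since at the lowest coverage of 10 reads 1 read moves a level by 10 points.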
